A study of Homo sapiens with 14 samples.

Results

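The peaks described here are those that the series' GATA1 peak lists place on chromosomes 4, 13 and 18, 3 gene-poor human chromosomes, and they are compared with those on the gene-dense chromosomes 17 and 22. Members were taken by chromosome name alone, without regard to any measured value. They number 34017 of the 370209 peaks on chromosomes 1 to 22, X and Y, with 7608 of 121070 (6.28%) in the list labelled shControl and 26409 of 249139 (10.6%) in the list labelled shHDAC5. Chromosomes 17 and 22 hold 10268 and 10446.

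GATA1 was immunoprecipitated at day 3 from PANC-1, a human pancreatic cancer cell line, in 2 samples labelled WT and shControl (a control short hairpin RNA) and 2 labelled HDAC5 knockdown and shHDAC5 (a hairpin against HDAC5, a class IIa histone deacetylase), each with 2 inputs, which were not analysed here. RNA was sequenced at day 3 in 6 libraries labelled BxPC-3, another pancreatic cancer line, 3 labelled WT and shControl and 3 labelled HDAC5 knockdown and shHDAC5. With a single peak list for each condition there are no replicates to set a difference between conditions against, and every interval given on a peak count or share is a 95% exact Poisson or binomial one that covers counting error only, as do the limits given for shares of 0, which are set at 3 counts. Peak names inside the lists go against the labels: peaks of the list labelled shControl carry names that begin with GATA1-SAHA-IP, whereas GATA1-NC-IP, which is how sample titles call the control, begins the names of the shHDAC5-labelled peaks. What the conditions are depends on whether the labels or the names are right.

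GATA1 is a zinc-finger transcription factor that directs red blood cell and platelet development. It binds DNA with the core GATA, usually preceded by A or T and followed by A or G, and in blood cells most of its sites lie in introns and between genes, away from promoters. Gene-poor chromosomes hold long stretches without coding genes and some of the longest genes of the genome, many of them for neural adhesion molecules, while their genes crowd in a few short segments, often near the chromosome ends. A peak is an interval where the authors' peak caller found more reads than its background, its summit is the base with the most reads, and its fold enrichment is the authors' ratio over that background. The lists reach down to weak peaks, with an authors' −log10 p of 1.303 (shControl-labelled) and 1.307 (shHDAC5-labelled). Of all their peaks, 5.10% and 0.419% have the authors' q of at most 0.05, so a peak here is not a shown binding site.

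Promoters on the 3 chromosomes that shControl-labelled peaks reached were rich in G and C, and 27 of 317 of them held a GATA hexamer. Of 1766 RefSeq promoter windows of coding genes there (GRCh38.p14, 250 bases before to 50 after a start, with some genes giving several), 317 (17.95%, interval 16.2% to 19.8%) were overlapped by a peak of the list labelled shControl, 122 (6.91%, 5.77% to 8.19%) by one of the list labelled shHDAC5 and 35 by both. The hexamers searched on both strands were AGATAA and AGATAG and TGATAA and TGATAG, none of which contains another. At least 1 was in 4440 (20%) of all 22198 coding-gene promoters of the genome and 21.5% of those of chromosomes 4, 13 and 18. It was in 8.52% (27 of 317, interval 5.69% to 12.2%) of the promoters with a shControl-labelled peak there and in 23.8% (29 of 122, 16.5% to 32.3%) of those with a shHDAC5-labelled peak. The median G plus C content was 69.7% in the first group and 62.7% in the second, beside 61.7% for all promoters of the 3 chromosomes and 59% for those with no peak. Promoters of chromosomes 17 and 22 gave 11.7% with a hexamer under shControl-labelled peaks (G plus C 68.3%) and 18.8% under shHDAC5-labelled ones (63.3%), beside 18.6% overall. A match of these letters is a description of the window and not a shown binding site.

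Of the 35 promoters reached by both lists, 6 held a hexamer. They belong to 5 genes, since COX18 has a pair of overlapping windows, and 1 window of each gene is printed because both lists reach these windows and the letters are in them. At none of the 5 did the hexamer lie inside peaks of both lists. The windows of LDLRAD4, the one gene of the highest gene-end peaks with a promoter under both lists, and of KIT, a receptor tyrosine kinase of blood stem cells, follow as windows under both lists that hold none of the hexamers. Capitals mark the hexamer as read 5′ to 3′ on the gene's strand, so TTATCA and CTATCT are the reverse complements of TGATAA and AGATAG. The sequences are RefSeq's, GRCh38.p14, and the 5 with a hexamer were chosen after their matches were seen.
MEDAG promoter, chr13:30906021-30906320, plus strand: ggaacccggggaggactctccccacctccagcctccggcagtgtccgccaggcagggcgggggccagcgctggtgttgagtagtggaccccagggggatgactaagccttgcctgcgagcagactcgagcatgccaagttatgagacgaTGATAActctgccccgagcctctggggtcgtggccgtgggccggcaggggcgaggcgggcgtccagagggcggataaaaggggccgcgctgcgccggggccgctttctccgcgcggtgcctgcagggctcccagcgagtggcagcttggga
ANK2 promoter, chr4:112705372-112705671, plus strand: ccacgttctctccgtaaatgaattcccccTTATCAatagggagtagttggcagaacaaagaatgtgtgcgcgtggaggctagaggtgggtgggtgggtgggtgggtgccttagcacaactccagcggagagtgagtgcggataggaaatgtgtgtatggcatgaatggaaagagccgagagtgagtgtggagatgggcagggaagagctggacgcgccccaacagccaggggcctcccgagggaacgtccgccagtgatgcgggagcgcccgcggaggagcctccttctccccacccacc
COX18 promoter, chr4:73069667-73069966, minus strand: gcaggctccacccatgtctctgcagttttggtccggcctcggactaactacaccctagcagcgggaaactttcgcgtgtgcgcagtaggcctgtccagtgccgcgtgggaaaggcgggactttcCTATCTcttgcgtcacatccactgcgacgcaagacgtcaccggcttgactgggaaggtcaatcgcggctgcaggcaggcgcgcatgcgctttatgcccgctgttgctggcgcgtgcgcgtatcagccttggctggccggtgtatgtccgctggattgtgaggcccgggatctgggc
FHDC1 promoter, chr4:152937553-152937852, plus strand: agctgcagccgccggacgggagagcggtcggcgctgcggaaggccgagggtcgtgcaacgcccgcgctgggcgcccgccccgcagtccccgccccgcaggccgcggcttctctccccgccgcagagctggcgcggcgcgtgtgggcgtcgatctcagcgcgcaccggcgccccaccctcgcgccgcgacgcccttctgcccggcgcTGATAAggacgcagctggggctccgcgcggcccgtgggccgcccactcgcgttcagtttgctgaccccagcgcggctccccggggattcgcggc
TMEM154 promoter, chr4:152679948-152680247, minus strand: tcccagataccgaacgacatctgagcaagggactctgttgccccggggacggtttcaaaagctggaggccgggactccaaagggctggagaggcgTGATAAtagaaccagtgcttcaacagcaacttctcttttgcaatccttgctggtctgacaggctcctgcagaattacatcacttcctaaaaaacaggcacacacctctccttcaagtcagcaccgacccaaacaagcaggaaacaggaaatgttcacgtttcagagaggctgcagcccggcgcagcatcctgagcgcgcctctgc
LDLRAD4 promoter, chr18:13641508-13641807, plus strand: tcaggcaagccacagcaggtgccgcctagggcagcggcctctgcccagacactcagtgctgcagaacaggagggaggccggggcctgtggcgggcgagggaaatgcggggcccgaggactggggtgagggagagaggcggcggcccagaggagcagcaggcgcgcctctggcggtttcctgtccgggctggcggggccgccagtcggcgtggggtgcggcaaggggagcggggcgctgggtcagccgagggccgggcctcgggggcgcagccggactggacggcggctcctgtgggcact
KIT promoter, chr4:54657707-54658006, plus strand: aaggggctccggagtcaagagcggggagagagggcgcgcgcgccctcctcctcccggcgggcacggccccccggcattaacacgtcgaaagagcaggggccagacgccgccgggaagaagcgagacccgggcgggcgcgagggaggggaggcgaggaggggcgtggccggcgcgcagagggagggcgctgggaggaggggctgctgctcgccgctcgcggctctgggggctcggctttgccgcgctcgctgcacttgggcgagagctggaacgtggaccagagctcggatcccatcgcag
MEDAG, a gene linked to fat cell differentiation, had its hexamer 101 bases before the start, inside a shControl-labelled peak of fold 3.23 and beyond the end of a shHDAC5-labelled one of fold 2.14. ANK2 encodes ankyrin-B, a membrane-skeleton adaptor, and its peaks had folds of 2.39 and 2.14, both beginning downstream of the hexamer. COX18, an assembly factor of cytochrome c oxidase, had peaks of fold 4.07 and 2.14, and its hexamer lay between them, in neither. FHDC1, a formin of the actin cytoskeleton, had peaks of 2.67 and 2.63, with the hexamer inside the shControl-labelled one alone. TMEM154, a membrane protein, had peaks of 2.95 and 2.25, with the hexamer outside both. At KIT the folds were 3.25 and 2.56. At the LDLRAD4 window, which lies at a start inside the gene, they were 2.76 and 2.14.

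Peaks per Mb on chromosomes 4, 13 and 18 were well below those of chromosomes 17 and 22 in the list labelled shControl and only slightly below them in the other list. Over the 366.61 Mb from the first to the last peak of the 3 chromosomes, the list labelled shControl held 20.8 peaks per Mb (interval 20.3 to 21.2), against 83.3 on chromosomes 17 and 22, which is 4.02-fold fewer (3.90 to 4.14). Coding genes numbered 3.73 and 12.95 per Mb of the same spans, 3.47-fold fewer. In the list labelled shHDAC5 the rates were 72.0 per Mb (71.2 to 72.9) and 84.8 per Mb, 1.18-fold fewer (1.15 to 1.20). Among the few peaks with the authors' q of at most 0.05 the ratio of the rates was 0.328 in place of 0.850 under the shHDAC5 label and 0.330 in place of 0.249 under the other.

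The chromosomes were not alike. Under the shControl label, chromosome 13 had 18.3 peaks per Mb, chromosome 4 had 18.4 and chromosome 18 had 29.2, ranking 1, 2 and 5 from the bottom of 23 chromosomes without Y. The intervals of chromosomes 4 and 13 overlapped, and that of chromosome 18 (28.1 to 30.5) lay above both although its coding genes, at 3.34 per Mb, were the sparsest of the 23. Under the shHDAC5 label the rates were 69.6 on chromosome 4, 70.8 on chromosome 13 and 79.2 on chromosome 18. All 3 lay above gene-dense chromosome 22, at 68.2 (65.7 to 70.8), though its interval overlaps those of chromosomes 4 and 13, and below chromosome 17, at 92.8. The span of chromosome 22 takes in sparse sequence without coding genes. Its 1 Mb windows from 10, 11, 12, 13 and 14 Mb held 10, 19, 35, 1 and 1 of these peaks. Whether chromosome 22 stays lowest without those windows was not tested. By number, the list labelled shHDAC5 held 3.78, 3.87 and 2.71 times as many peaks as the other list on chromosomes 4, 13 and 18, against 1.15 and 0.773 times on chromosomes 17 and 22 and 2.06 times over all chromosomes.

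**Figure D1:**
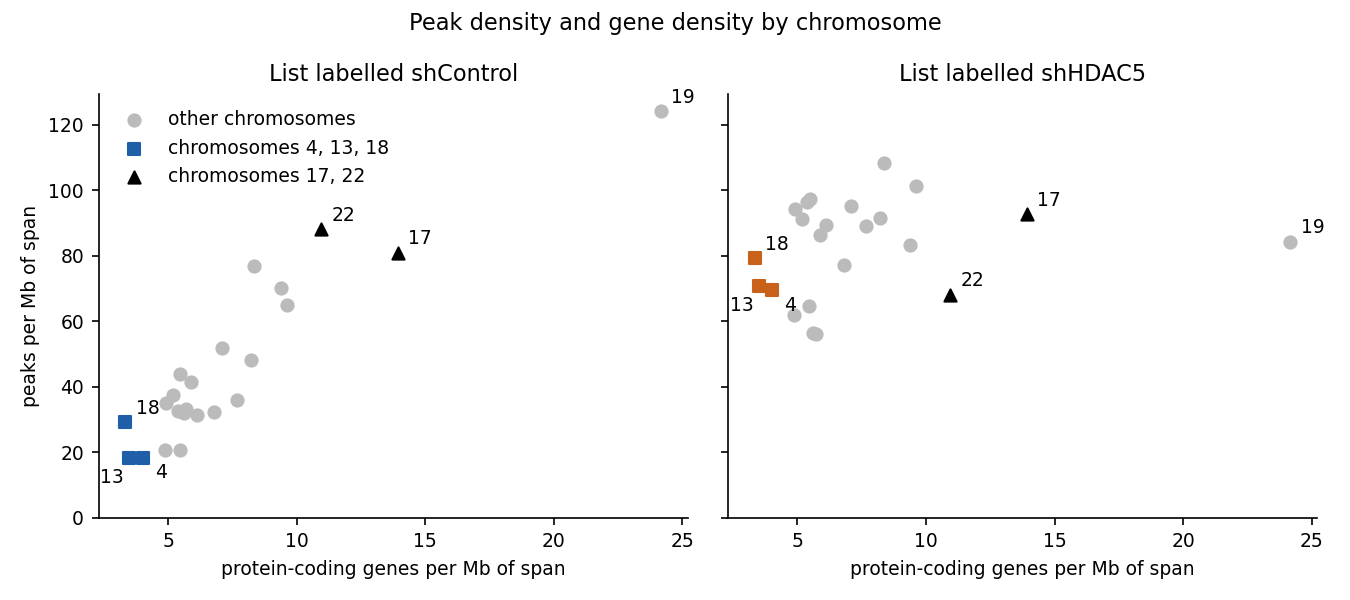
Peaks per Mb of span (vertical) against protein-coding genes per Mb of span (horizontal) for chromosomes 1 to 22 and X, 1 point per chromosome and 1 panel per list, with squares for chromosomes 4, 13 and 18 and triangles for 17 and 22. In the left panel the squares sit at the bottom left and points rise with gene density, while in the right panel the squares, at 69.6 to 79.2 peaks per Mb, lie level with or above chromosome 22. The span of chromosome 22 includes sparse windows without coding genes near its start.

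Across 23 chromosomes the peak and gene densities had a Pearson r of 0.912 and a Spearman rho of 0.853 in the list labelled shControl and of 0.197 and 0.289 in the list labelled shHDAC5, as a description, since all points of a list share its libraries and depth. Leaving out chromosomes 4, 13 and 18 gave r of 0.904 and 0.122 over 20 chromosomes. Within the 369 windows of 1 Mb on the 3 chromosomes, both lists rose with the number of coding genes, with rho of 0.358 and 0.572. Windows without a coding gene (78) held a median of 11 shControl-labelled and 58 shHDAC5-labelled peaks. With 5 to 14 coding genes (124 windows) the medians were 17 and 84. In the 7 windows with 15 or more they were 144 and 76, but the shControl-labelled counts ran from 14 to 268. Windows from 0, 1 and 2 Mb of chromosome 4 and 113 Mb of chromosome 13, near chromosome ends, held 160, 268, 144 and 180. Those from 9, 70 and 99 Mb of chromosome 4 held 32, 15 and 14, so gene number and place cannot be told apart here. The lists' own counts over these 369 windows correlated with r of 0.294 and rho of 0.469.

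A few chromosome ends held much of what the list labelled shControl has on these chromosomes. The first 10 Mb of chromosome 4, the end that carries 128 coding genes (12.8 per Mb), held 1344 of its 3503 peaks, 38.4% on 5.26% of the span, or 134 per Mb against 12.6 per Mb between the 2 terminal 10 Mb segments. The last 5 Mb of chromosome 13, with 42 coding genes, held 445 of 1758 peaks (25.3%), 89.0 per Mb. The last 5 Mb of chromosome 18 held 782 of 2347 (33.3%), 156 per Mb, with only 20 coding genes, 4 per Mb.

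The first 5 Mb of chromosome 18 had the same 20 coding genes and 28.8 peaks per Mb, so ends with an equal number of genes differed. In the list labelled shHDAC5 the same 3 segments held 6.59%, 5.92% and 7.60% of their chromosome's peaks, close to their 5.26%, 5.20% and 6.23% of the span. Over the 5 segments of 10 Mb at the ends of the 3 chromosomes (the short arm of chromosome 13 has no peak before 18176154), the rates were 61.7 per Mb against 14.3 in the interior under the shControl label (4.32-fold). They were 70.8 against 72.2 (0.981-fold) under the shHDAC5 label. That pooled rate includes the nearly empty last 10 Mb of chromosome 4, at 8.60 per Mb. The other end segments all lay above their interiors under this label. Chromosome 4 had 87.2 per Mb in its first 10 Mb against 72.2, and chromosome 13 had 75.2 against 70.3. Chromosome 18 had 99.0 and 84.2 against 75.1. The ratio of ends to interior was 2.88-fold and 1.19-fold on chromosomes 17 and 22.

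**Figure D2:**
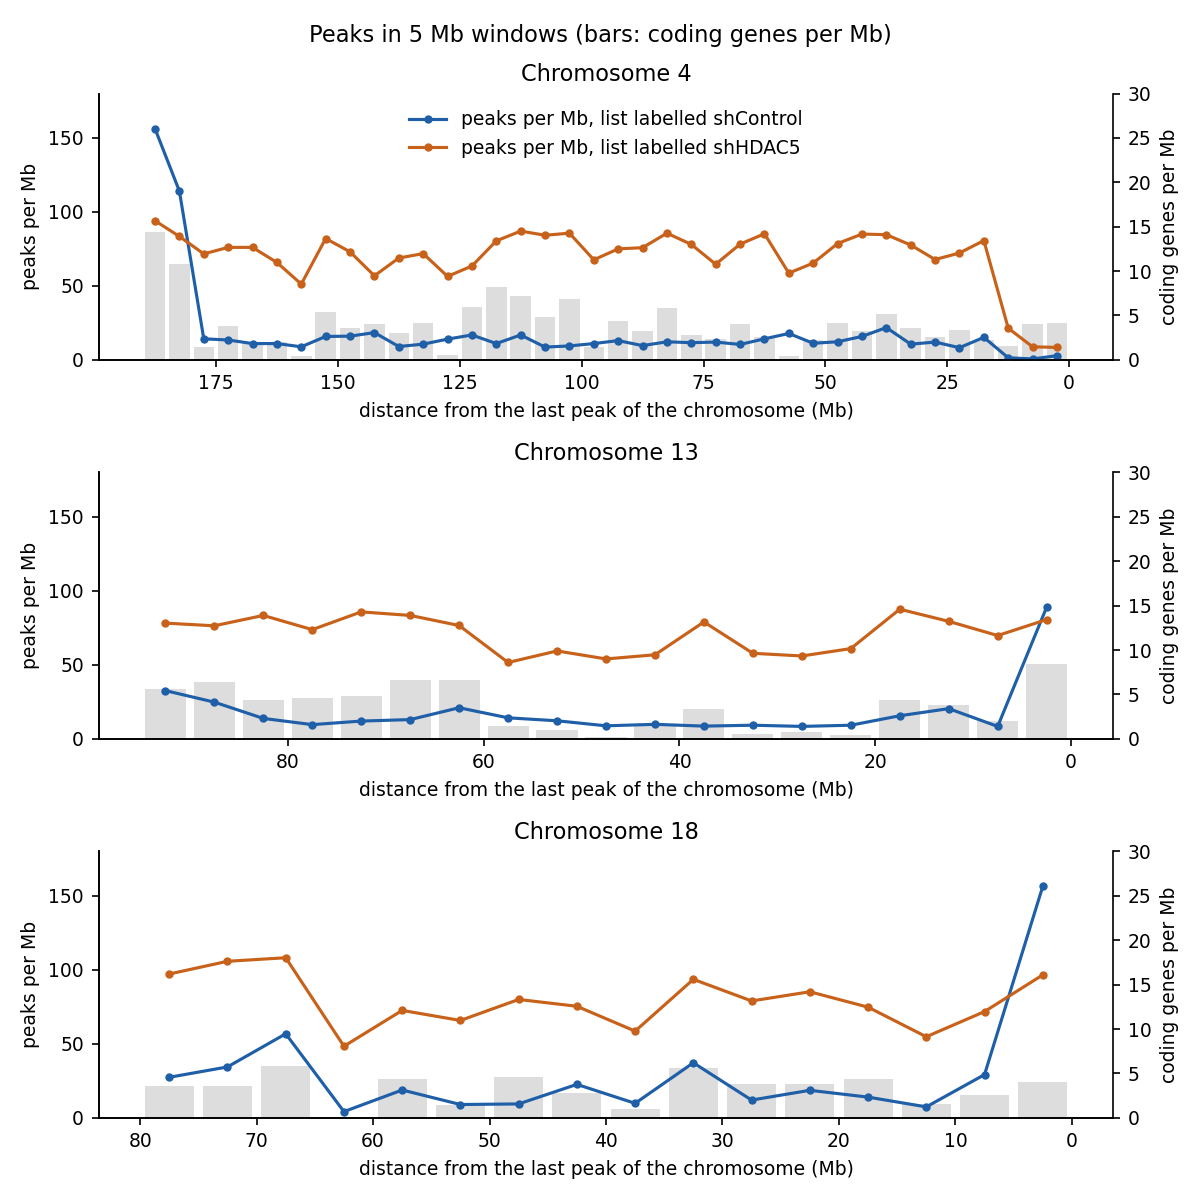
Peaks per Mb in consecutive windows of 5 Mb along chromosomes 4, 13 and 18 (lines, left axis, 1 colour per list) with coding genes per Mb in the same windows (grey bars, right axis), plotted by distance from the last peak of each chromosome. The shControl-labelled line leaves its low level at the far left of chromosome 4 and at the right ends of chromosomes 13 and 18, reaching 156 per Mb on chromosome 18, and both lines fall at the right end of chromosome 4.

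Genes in these segments took dense clusters of peaks. The examples were chosen after their values were seen, from the genes there with the most shControl-labelled summits. NFATC1, a calcium-regulated transcription factor gene near the end of chromosome 18 (chr18:79395930-79529323), contained 80 shControl-labelled summits and 12 shHDAC5-labelled ones, 59.97 and 8.996 per 100 kb. CTDP1, a phosphatase of RNA polymerase II (chr18:79676768-79756625), contained 39 and 6. MBP, the gene of myelin basic protein, contained 37 and 11. On chromosome 4 SORCS2, a neuronal sorting receptor (chr4:7192538-7742827), contained 88 and 60, and FAM53A, a smaller gene nearer the end, 38 and 8. On chromosome 13 MCF2L, a guanine nucleotide exchange factor (chr13:112894335-113099742), contained 47 and 16. ATP11A, a lipid flippase beside it, contained 38 and 15. In each of these 7 genes the shControl-labelled summits were the more numerous, which the way they were chosen favours. LDLRAD4, outside these segments but also among the genes of chromosome 18 with the most shControl-labelled summits, contained 46 and 58.

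Genes with many shHDAC5-labelled summits were instead long ones, and the examples were again chosen after their values were seen. On chromosome 4 CCSER1 contained 19 shControl-labelled and 97 shHDAC5-labelled summits and GALNTL6 17 and 90. On chromosome 13 GPC5 and GPC6, cell-surface heparan sulfate proteoglycans, contained 10 and 86 and 14 and 84. On chromosome 18 the netrin receptor DCC contained 8 and 83 and DLGAP1, a synaptic scaffold, 22 and 76. Their shHDAC5-labelled summits ran from 5.86 per 100 kb in GPC5 to 7.92 per 100 kb in DLGAP1. All coding-gene bodies of the 3 chromosomes held 75.5 per Mb, so by rate these genes did not stand out. Across the 1367 coding genes of the 3 chromosomes, gene length and number of summits inside had a Spearman rho of 0.491 under the shControl label and 0.899 under the shHDAC5 label. That is a correlation across genes, which are not independent replicates.

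One stretch of chromosome 4 was nearly empty in both lists. From chr4:177000001 to the last peak at 190204129, a stretch chosen after its values were seen, 13.2 Mb with 43 coding genes held 18 shControl-labelled peaks (1.36 per Mb, interval 0.808 to 2.15) and 110 shHDAC5-labelled ones (8.33 per Mb, 6.85 to 10.04). The 14 Mb before it, with 46 coding genes, held 152 and 1015 peaks, 10.9 and 72.5 per Mb. Relative to all of chromosome 4 before it the rates were 14.4-fold and 8.91-fold lower. ACSL1, the fatty acyl-CoA ligase gene inside this stretch, had no summit in either list.

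Stretches without coding genes elsewhere kept peaks. The 4.86 Mb between PCDH7 and ARAP2 on chromosome 4 held 51 and 255 peaks (10.5 and 52.5 per Mb), and the 3.72 Mb between SLITRK5 and GPC5 on chromosome 13 held 34 and 214 (9.14 and 57.5 per Mb). The 6.01 Mb between ANKRD30B and ROCK1 on chromosome 18, which spans the centromere, held 42 and 299 (6.99 and 49.8 per Mb).

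Peaks of chromosomes 4 and 13 were among the narrowest in both lists, and those of chromosome 18 included the widest of the 3 chromosomes. Under the shControl label the median width was 322 bp on the 3 chromosomes and 335 bp on 17 and 22, and under the shHDAC5 label 289 and 302 bp, a difference of 13 bp in both. By chromosome the shControl-labelled medians were 317 bp on 4, 308.5 on 13 and 344 on 18, beside 340 on 17 and 328 on 22. Chromosome 13 was the narrowest of 23 and chromosome 4 the second narrowest. The shHDAC5-labelled medians were 285, 286 and 298 bp, beside 309 on 17 and 282 on 22, the lowest value of the 23 chromosomes.

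Many peaks had the smallest width in the lists, 258 bp: 22.8% (interval 21.9% to 23.8%) of shControl-labelled and 42.5% (41.9% to 43.1%) of shHDAC5-labelled peaks on chromosomes 4, 13 and 18, against 18.8% and 38.0% on 17 and 22. Peaks of 1 kb or more numbered 101 under the shControl label, 69 of them on chromosome 18, 21 on chromosome 4 and 11 on chromosome 13, and 53 under the shHDAC5 label.

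**Figure D3:**
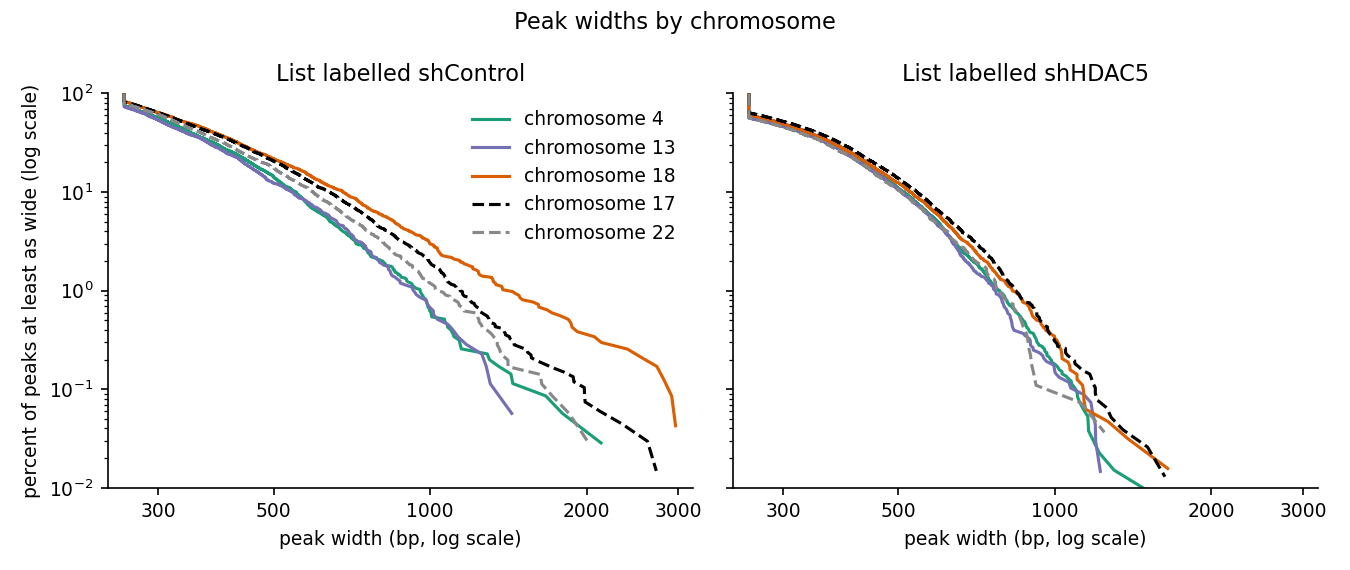
Percent of peaks at least as wide as the value on the horizontal axis (both axes logarithmic), 1 line per chromosome and 1 panel per list. Under the shControl label the line of chromosome 18 runs above all others and out to 2964 bp while those of chromosomes 4 and 13 run lowest, and under the shHDAC5 label the 5 lines lie close together.

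Most of the shControl-labelled peaks that pass a strict threshold sat on chromosome 18. At the authors' q of at most 0.05 the list labelled shControl kept 229 of 7608 peaks (3.01%, interval 2.64% to 3.42%) on the 3 chromosomes and 2.27% (1.99% to 2.58%) on 17 and 22, below the 5.10% of all chromosomes. They were 200 on chromosome 18 (8.52%), 27 on chromosome 4 (0.771%) and 2 on chromosome 13 (0.114%). Of the 200, 141 lay in the last 5 Mb of chromosome 18, where 18.03% of 782 peaks passed and the median width of all peaks was 400.5 bp. Without that segment 88 of 6826 peaks passed (1.29%, 1.04% to 1.59%), a share below that of 17 and 22. The difference in median width at this threshold was 80 bp, with the wider peaks on chromosomes 4, 13 and 18, with the segment and 23.5 bp the other way (500.5 against 524 bp) without it.

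In the list labelled shHDAC5, 42 of 26409 peaks passed (0.159%, 0.115% to 0.215%), against 0.412% (0.298% to 0.554%) on 17 and 22 and 0.419% overall. None of the 483 in the last 5 Mb of chromosome 18 did, which at 3 counts of the total allows a share of up to 0.621%, whereas 17 of its 22 passing peaks on that chromosome lay between ANKRD30B and ROCK1, around the centromere. On chromosome 4, 9 of 15 lay between 49 and 53 Mb, beside the centromere. The q was listed as 1 for 74.7% and 88.3% of the peaks of the 3 chromosomes, and the 3 commonest fold values alone held 53.8% and 73.4% of them, so most of these peaks carry few distinct values of strength.

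Several of the highest peaks lay far from any coding gene. In the list labelled shControl the highest on chromosome 4 was chr4:131747149-131747838 (690 bp, fold 10.8), 1402 kb from the nearest coding-gene end, that of PCDH10, a protocadherin, and its summit lay in a peak of the other list. Chromosome 18 had a peak of fold 10.8 (492 bp) at chr18:47022815-47023306 inside KATNAL2, a katanin-like gene, next to ELOA2. Next came chr18:79798163-79799096 (934 bp, fold 6.69), 0.48 kb from an end of KCNG2, a potassium channel subunit, and chr18:79916597-79918274 (1678 bp, fold 6.32) in SLC66A2. On chromosome 13 the highest was chr13:68170987-68171419 (433 bp, fold 5.20), 941 kb from PCDH9, another protocadherin, with its summit also in a peak of the other list.

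In the list labelled shHDAC5 the highest on chromosome 18 was chr18:16158416-16158816 (401 bp, fold 6.84), 1218 kb from ANKRD30B, which the other list also held. On chromosome 4 it was chr4:90677945-90678220 (276 bp, fold 5.89), within CCSER1. On chromosome 13 it was chr13:29402443-29402981 (539 bp, fold 4.27), in MTUS2, where 5 peaks shared that fold. These 3 were the highest of 13241, 6809 and 6359 peaks on chromosomes 4, 13 and 18.

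Summits crowded at gene ends in the list labelled shControl. Of shControl-labelled summits on chromosomes 4, 13 and 18, 8.74% (665 of 7608, interval 8.12% to 9.40%) lay no more than 1 kb from a coding gene's start or end, where 1.42% of the span lies, a 6.18-fold excess. On 17 and 22 the share was 11.9% against 4.59% of the span, 2.58-fold. Chromosomes 4, 13 and 18 gave 9.31%, 9.22% and 7.54%, with overlapping intervals. Of shHDAC5-labelled summits 1.51% (399 of 26409, 1.37% to 1.67%) lay there, 1.07-fold the share of the span. At q of at most 0.05 the shares were 13.97% of 229 and 0 of 42, which at 3 counts of the total allows up to 7.14%. Without the threshold the shHDAC5-labelled share was 5.66% against 4.59% on 17 and 22, 1.23-fold.

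Inside coding genes lay 47.9% (46.8% to 49.1%) of shControl-labelled and 37.9% (37.3% to 38.5%) of shHDAC5-labelled summits of the 3 chromosomes, where 36.2% of the span is genic. On 17 and 22 the shares were 68.4% and 57.2% against 51.3%. More than 500 kb from any coding gene lay 9.75% and 12.5% of summits of chromosomes 4, 13 and 18, beside 17.03% of the span. The median distance from a summit to the nearest coding-gene end was 37.5 and 76.8 kb, against 97.2 kb for evenly spaced positions of the span, and 9.96 and 20.4 kb against 26.1 kb on 17 and 22.

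**Figure D4:**
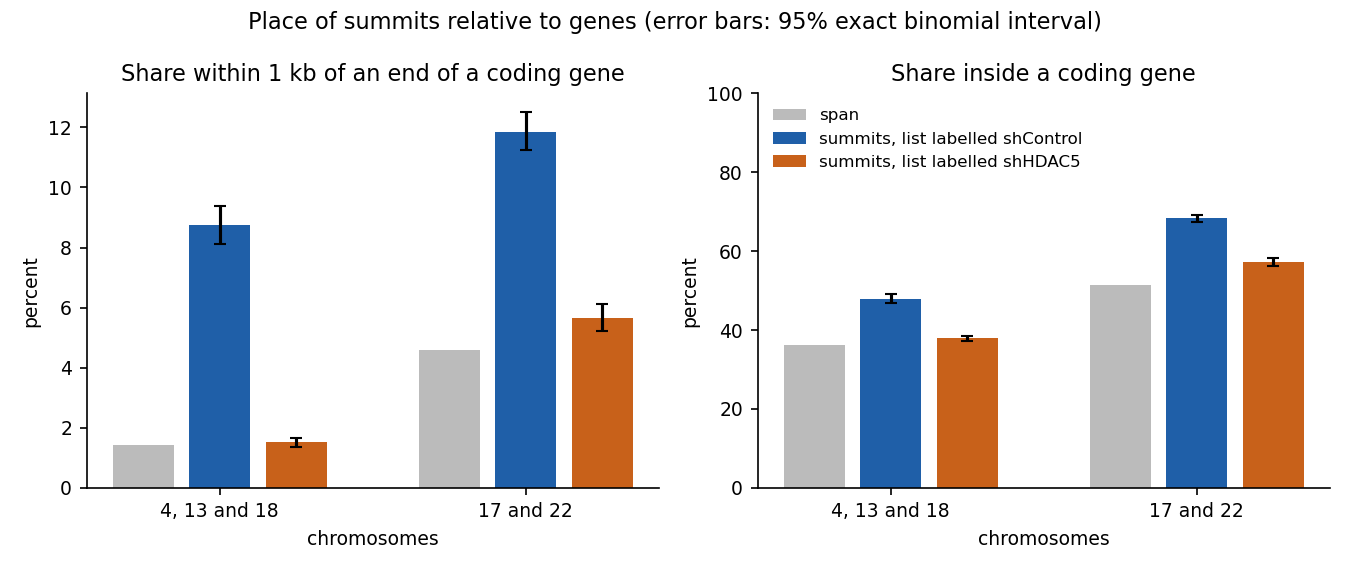
Percent of summits within 1 kb of a coding-gene end (left) and inside a coding gene (right) for chromosomes 4, 13 and 18 and for 17 and 22, with the share of the span in grey, the list labelled shControl in blue and the list labelled shHDAC5 in orange. Near gene ends the blue bar of the 3 chromosomes stands at 8.74% over a grey bar of 1.42%, while the orange bar, at 1.51%, is level with it.

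The lists shared few peaks. On the 3 chromosomes 5.56% (5.06% to 6.10%) of shControl-labelled summits lay in a peak of the other list, which covers 2.49% of the span, and 1.77% (1.61% to 1.93%) of shHDAC5-labelled summits lay in a shControl-labelled peak, which cover 0.797%. Both are 2.2-fold what the covered share gives, beside 1.66-fold and 1.60-fold on 17 and 22.

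Of the 1367 coding genes of chromosomes 4, 13 and 18, 166 (12.1%) had a summit within 1 kb of an end in both lists, 400 (29.3%) in the list labelled shControl alone, 198 (14.5%) in the list labelled shHDAC5 alone and 603 (44.1%) in neither. On chromosomes 17 and 22 the shares of 1596 genes were 20.1%, 37.0%, 14.2% and 28.7%. Counting each list by itself, 41.4% of genes had a shControl-labelled and 26.6% a shHDAC5-labelled summit there, and 57.1% and 34.3% on 17 and 22. Whether more genes have both than unrelated lists would give was not tested. On chromosome 4 49.1% had none, and on chromosome 18 34.7%. Ranked by the lower of the folds, the genes with both were led by COL25A1, a transmembrane collagen, with folds of 3.23 and 3.85, BTC, the EGF receptor ligand betacellulin, with 3.23 and 2.99, and BLTP1, a lipid-transfer protein, with 2.95 and 2.99 on chromosome 4. On chromosome 13 they were GAS6, a ligand of the TAM receptor kinases (3.23 and 2.99), KLHL1 (3.23 and 2.99) and XPO4, a nuclear transport receptor (4.07 and 2.99). On chromosome 18 they were TWSG1, a modulator of BMP signalling (4.48 and 3.88), CTDP1 (3.91 and 3.42) and LDLRAD4, an inhibitor of TGF-beta signalling (3.503 and 3.002). At BTC, GAS6, XPO4 and CTDP1 these peaks of the lists lay at opposite ends of the gene.

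Named groups of genes on these chromosomes were mixed. Of 13 arachidonic acid and lipid genes 2 had a gene-end peak in both lists, 2 under shControl alone, 3 under shHDAC5 alone and 6 in neither. The pair with both were GPAT3, a glycerolipid-forming acyltransferase (folds 3.23 and 2.14), and LPIN2, a phosphatidate phosphatase (2.47 and 2.78), and PLA2G12A, a secreted phospholipase A2, had a shHDAC5-labelled peak alone (2.14). Of 10 pancreas and TGF-beta regulators 1 had both (CDX2, an intestinal homeobox gene, 2.73 and 2.56), 4 shControl alone, among them PDX1, the pancreatic master regulator (3.23), and 5 neither, among them GATA6 and SMAD4. At LPIN2 and CDX2 the peaks of the lists lay at opposite ends of the gene.

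Of 13 growth factors, chemokines and receptors 4 had both (BTC, CXCL1, KIT and PDGFRA), 6 shControl alone, 1 shHDAC5 alone (EGF, 2.14) and 2 neither. At PDGFRA, as at BTC, the peaks of the lists lay at opposite ends of the gene. Of 17 neural adhesion and guidance genes SLITRK5, a synaptic adhesion protein, had both (2.11 and 3.85), 8 had shControl alone, 2 shHDAC5 alone and 6 neither. Inside the bodies of these 17, 6.23 Mb in all, lay 61 and 386 summits, 9.79 and 62.0 per Mb. FECH, the last enzyme of haem synthesis and an erythroid gene, had both (3.23 and 2.14).

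RNA was measured in libraries labelled as another line than the one used for the peaks, and most genes with enough counts differed between its groups. In the 6 libraries, of 15179758 to 17854340 counts, 84.7% of 19181 genes tested passed an adjusted p of 0.05 (edgeR's quasi-likelihood test, Benjamini-Hochberg), 44.8% higher and 39.9% lower under the shHDAC5 label. Coding genes of chromosomes 4, 13 and 18 gave 373 higher (43.4%) and 393 lower (45.8%) of 859 tested, with a median log2 fold change of 0.0047 beside 0.09 over all genes tested. Genes of 17 and 22 gave 40.6% and 48.2%, median -0.13. With upper-quartile scaling the median of all genes moved by 0.14, and the genes of chromosomes 4, 13 and 18 then gave 420 higher and 352 lower, and the higher were also the more numerous with DESeq2 (408 and 380) and with no filter (425 and 402), so which direction is the commoner depends on the method.

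HDAC5 itself went against its label, with more RNA under the knockdown label (94.9 ± 2.99 CPM under shControl and 164 ± 4.44 CPM under shHDAC5, counts scaled to library size, SD, n = 3), and GATA1 RNA stood at 0.344 ± 0.093 and 2.85 ± 0.438 CPM. Of 6 epithelial markers KRT19 stood at 0.0215 and 0.0947 CPM, EPCAM at 1.84 and 1.99, CDH1 at 1.43 and 1.33, KRT8 at 717 and 1010, KRT18 at 404 and 327, and KRT7 at 371 and 25.3 (adjusted p = 9.28e-102, edgeR), and the 6 summed to 1477 to 1507 and 1327 to 1395 CPM. The 6 fibroblast markers summed to 121 to 131 and 85.7 to 90.9 CPM, mostly COL1A1 and PDGFRB, with LUM at 0, the 5 leukocyte markers to 3.32 to 4.19 and 5.26 to 6.68, with PTPRC at 0.0215 and 0.0968, and the 4 endothelial ones to 1.15 to 1.48 and 3.47 to 4.12. Of the epithelial markers, taken to check the labelled line, KRT19, EPCAM and CDH1 were thus low while KRT8 and KRT18 were high. Whether the libraries are of the line on their label was not tested. Directions are between libraries as labelled, and the part of these markers in the results was not tested. Whether the 3 libraries of a group are separate cultures is not labelled, and p-values cover no more than the spread among them, which may be technical.

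Both directions occurred in every class of gene-end peak, as among all genes tested (44.8% higher and 39.9% lower). Of 118 tested genes with peaks in both lists 53 rose and 52 fell, of 293 with a shControl-labelled peak alone 133 rose and 136 fell, of 123 with a shHDAC5-labelled peak alone 58 rose and 47 fell, and of 325 with neither 129 rose and 158 fell. Median log2 fold changes were 0.02, 0.04, 0.14 and -0.15, and on 17 and 22 -0.13, -0.04, -0.07 and -0.24. The share of matched genes with enough counts to be tested was 73.8%, 77.1%, 64.4% and 57.5% in the 4 classes, and 81.5%, 82.6%, 69.9% and 66.0% on 17 and 22. The median level of matched genes under the shControl label was 15.5, 13.6, 5.52 and 1.00 CPM.

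Among the 9 genes with the highest gene-end peaks in both lists, 3 rose, 2 fell, 2 did not pass and 2 were not tested. CTDP1 stood at 24.5, 24.5 and 25.95 CPM in the libraries labelled shControl and at 51.2, 50.04 and 53.95 CPM in those labelled shHDAC5. All of the latter lay above all of the former (log2 fold change 1.05, SE 0.061, adjusted p = 1.52e-31, edgeR). XPO4 stood at 52.9, 51.7 and 51.2 CPM against 22.3, 23.02 and 21.1 CPM, without overlap (-1.23, SE 0.0622, adjusted p = 2.82e-36, edgeR). LDLRAD4 stood at 9.91, 9.36 and 8.03 CPM against 1.71, 2.81 and 1.68 CPM, again without overlap (-2.13, SE 0.174, adjusted p = 1.99e-21, edgeR). BLTP1 and TWSG1 rose by log2 0.63 and 0.34, COL25A1 (27.1 and 29.3 CPM) and GAS6 (32.0 and 29.8 CPM) did not pass, and BTC had no count in any library.

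Of the lipid genes 9 were tested, of which 5 rose, 3 fell and 1 did not pass. GPAT3, with peaks in both lists, rose from 1.74 ± 0.197 to 9.33 ± 0.463 CPM and PLA2G12A from 26.5 ± 0.341 to 87.0 ± 1.33 CPM, while SCD5, a desaturase with a shControl-labelled peak alone, fell from 14.95 ± 0.971 to 3.19 ± 0.315 CPM and HADH, a mitochondrial beta-oxidation enzyme with no gene-end peak, from 96.1 ± 4.91 to 29.1 ± 0.0914 CPM (SD, n = 3). Of the 7 tested pancreas and TGF-beta regulators 2 rose and 4 fell, and SMAD4 did not pass at 49.6 and 46.8 CPM. Of the 5 tested growth factors and chemokines 4 rose and 1 fell, and 8 of the list were not tested. Over all genes tested 44.8% rose and 39.9% fell, so most tested members of any list would pass.

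AREG, the EGF receptor ligand amphiregulin, stood at 9.65, 9.71 and 10.3 CPM under the shControl label and at 666, 632 and 654 CPM under the shHDAC5 label, every library of the second group above the first (log2 6.04, SE 0.0443, adjusted p = 2.10e-115, edgeR). EGF and CXCL8, a neutrophil-attracting chemokine, had no count under the shControl label and 4.07 ± 0.306 and 16.99 ± 1.70 CPM (SD, n = 3) under the other, at least 63.1-fold and 263-fold higher against 3 counts over the group. FGF2 fell from 94.8 ± 2.19 to 39.8 ± 2.26 CPM. Near its ends EGF has a shHDAC5-labelled peak alone, AREG and FGF2 a shControl-labelled one alone, and CXCL8 none.

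Of the 17 neural genes 12 were not tested, 3 rose and 2 fell. SLITRK5 stood at 65.8, 60.5 and 66.1 CPM under the shControl label and at 14.5, 14.2 and 14.1 CPM under the shHDAC5 label, without overlap (log2 -2.17, SE 0.0653, adjusted p = 3.79e-56, edgeR). PCDH9, which contained 6 and 56 summits, stood at 0.0644, 0.0699 and 0.0604 CPM, a single count in each library, and at 52.6, 58.3 and 50.7 CPM, also without overlap (adjusted p = 4.68e-73, edgeR). FECH fell from 26.4 ± 1.73 to 18.7 ± 1.24 CPM (SD, n = 3).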

How the data were processed

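The sources used here are 2 deposited peak lists, 1 per condition, from 2 GATA1 immunoprecipitates per condition, and a table of raw read counts per gene for 6 RNA libraries. Per the submitters' processing notes, which give no order or role, the tools were fastp 0.23.2, FastQC 0.11.9, MACS2 2.2.7.1, deepTools 3.5.0 and featureCounts 2.0.1, and the build was hg38. Details of the aligner and of pooling for peak calling were not given in the sources used here. In the deposited lists the fold enrichment over background is a linear ratio, and p and q are given as −log10 values. The counts are as deposited by the authors, whole reads per gene with no normalization.

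Peaks were taken by chromosome name, and the members, gene lists and tests were chosen with earlier results of these data known. Rates use the span from the first to the last peak of either list, and shares of the span use a grid of 100 bp. Coding genes and promoter sequences are RefSeq's (GRCh38.p14), with 1296 of the 1367 coding genes of chromosomes 4, 13 and 18 matched to the counts by symbol. Intervals are exact 95% Poisson or binomial ones. RNA was tested on all genes passing edgeR's expression filter with edgeR 4.0.16's quasi-likelihood test in R 4.3.3 (TMM factors, Benjamini-Hochberg adjusted p of 0.05). On simulated counts for 16588 genes that test found 189 of 200 genes changed 2-fold, with 3 false calls. CPM values use TMM library sizes, which fall on totals of 15179758 to 17854340 counts. A fold against libraries all at 0 is a lower bound against 3 counts over the group.

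Peaks were named by a rule (the 3 highest folds per list and chromosome) and genes by another (the 3 per chromosome with the highest lower fold of gene-end peaks in both lists, and all members of 5 lists). Results on some members are not reported here. Other names were chosen after their values were seen, as stated beside them. Alternatives were stricter thresholds, other windows, gene sets and overlaps, and for RNA DESeq2 1.42.0, upper-quartile scaling, no filter, a replicate block and leaving out each library. The 4 input samples were not analysed here. The counting's strand setting was not stated either, so reads of a gene and an overlapping antisense gene cannot be told apart.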

Additional observations from a re-analysis of the deposited data

How the results depend on the processing

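Of 53 recomputed values 26 stayed close to those reported, 26 moved in size and 1 reversed. Those that stayed close include every RNA gene count, under a limit wide enough that the commoner direction could change. Every value that moved or reversed was a peak value, and most recomputed peak values moved. Across stricter thresholds the ratio of peaks per Mb on chromosomes 4, 13 and 18 to that on 17 and 22 was 0.330 at q of at most 0.05 and 0.227 at p of at most 0.001 under the shControl label, and 0.328 and 0.626 under the shHDAC5 label. Without distal 4q it was 0.258 and 0.878, and without the terminal 10 Mb segments 0.891 under the shHDAC5 label (these settings were chosen after seeing the data). The difference in median width reversed under the shControl label at q of at most 0.05 (80 bp). It was -0.5 bp at p of at most 0.001 and -23.5 bp at that q without the last 5 Mb of chromosome 18, also chosen after seeing the data, and -21 bp at that q under the shHDAC5 label. For the lists labelled shControl and shHDAC5, the share of summits near a gene end was 19.2% and 6.81% with a window of 5 kb. There 6.38% of the span lies, in place of 1.42% as reported. With every annotated gene the share of summits was 14.9% and 5.20%, where 4.77% of the span lies. It was 13.97% and 0% at that q, and 11.9% and 1.85% at that p. Inside genes the share of summits was 61.0% and 53.0% with every annotated gene, where 51.2% of the span lies in place of 36.2%. At that q it was 55.5% and 14.3%. The shared peaks were 10.1% and 2.86% with an overlap of 1 bp, and 2.09% and 1.25% at that p in both lists. By construction, a share can only stay or rise with the wider window, with every annotated gene or with the 1 bp overlap. The cause of the other moves was not tested. No interval is repeated in either list, so counting each distinct interval once changes nothing by construction and is not among these values.

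For RNA, the genes of chromosomes 4, 13 and 18 called higher and lower numbered 408 and 380 with DESeq2, 420 and 352 with upper-quartile factors and 425 and 402 with no filter. Leaving out each library gave 368 to 376 higher and 387 to 394 lower. With the replicate number as a block the counts were 373 and 392, and same-numbered libraries did not deviate together (correlations -0.0126, 0.00258 and 0.00593), so the pairing is by number only. The depth of the peak libraries is not in the files, so how far read number sets the number and width of peaks could not be examined.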
